A study of Mus musculus with 16 samples.

Results

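The 100 RNAs described here took up less and less of the captured new RNA as mouse embryonic stem cells were labelled for longer. They were chosen from 54446 mouse gene identifiers by their CPM, counts scaled to a common total of mouse counts, in the Control libraries: a mean of at least 50 CPM over the 8 Control libraries, a mean that fell at each step from 10 to 20, 20 to 30 and 30 to 60 min, and then the 100 lowest ratios of 60 to 10 min. The abundance minimum left 4263 identifiers, 338 of these fell at each step, and the 100 with the lowest ratios are the members. All values of the Control libraries are therefore descriptions of how the members were picked. The CKO libraries took no part in the choice, and the tests of the change with labelling time were made in them alone.

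The cells are C57BL/6 mouse embryonic stem cells, self-renewing cells grown in serum with LIF and the inhibitors CHIR99021 and PD0325901. Control and Mettl14 CKO cells were compared; METTL14 is the METTL3 partner in the complex that places N6-methyladenosine on RNA, and the labels do not say how or when the gene was deleted. At 48 h after seeding, cells of each genotype were given 0.5 mM 5-ethynyl uridine (EU), a labelled building block for RNA, for 10, 20, 30 or 60 min. This makes 8 groups with 2 libraries each, 16 in all, and every group received EU. One label gives the RNA as total and another as nascent polyA, so whether polyadenylated RNA was selected is not settled here. The labels do not state whether the 2 libraries of a group are separate cultures, so each p-value measures the spread between libraries, which may be technical.

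In metabolic labelling, a stable RNA keeps gathering label for as long as the label is present, whereas the labelled pool of an RNA that is quickly processed or degraded levels off once its loss balances its synthesis. The share of a short-lived RNA in the captured pool thus drops as labelling goes on, even while its labelled amount still grows. Immediate early transcripts, noncoding RNAs that the exosome removes and messenger RNAs of many regulators are textbook cases of short-lived RNA. A capture also carries along some unlabelled RNA, and its part in the values below was not tested.

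The count files name genes by Ensembl identifier only, and 0 of them could be matched to the available RefSeq gene table. The members are therefore described as groups by rank, abundance and pattern, with 4 given by identifier. Mettl14 itself, stem cell and other cell type markers, gene classes and sequences were not analysed here. The libraries held between 5109162 and 28502750 mouse counts. The CKO 30 min libraries stood apart, with the fewest counts, 5188643 and 5109162, yet 30583 and 31826 detected identifiers, where the other libraries reached 26857 or fewer, so results are also given without the 30 min libraries. No member was at 0 in any library, the lowest member count in a library was 97, and the members' median count per library was 395.5 to 1844.

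As a group the members lost share in both genotypes. In the Control libraries they held 1.77% and 1.76% of mouse counts at 10 min, 1.502% and 1.502% at 20 min, 1.33% and 1.33% at 30 min, and 1.07% and 1.06% at 60 min. In the CKO libraries they held 1.93% and 1.94% at 10 min, 1.49% and 1.502% at 20 min, 1.30% and 1.38% at 30 min, and 1.25% and 1.08% at 60 min. The CKO values fell in the same order of labelling times as the rule demanded of Control, without overlap between 10, 20 and 30 min, and with both 60 min libraries below the 4 at 10 and 20 min and below the lower 30 min library. From 10 to 60 min the mean share changed 0.604-fold in Control, which the rule fixed, and 0.602-fold in CKO. Counting error is small beside these differences, the widest 95% Wilson interval of a library's share being ± 0.0101 percentage points, although reads without molecular identifiers are not independent molecules. The 5 most abundant members of each library held 20.4% to 29.9% of the members' counts.

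**Figure D1:**
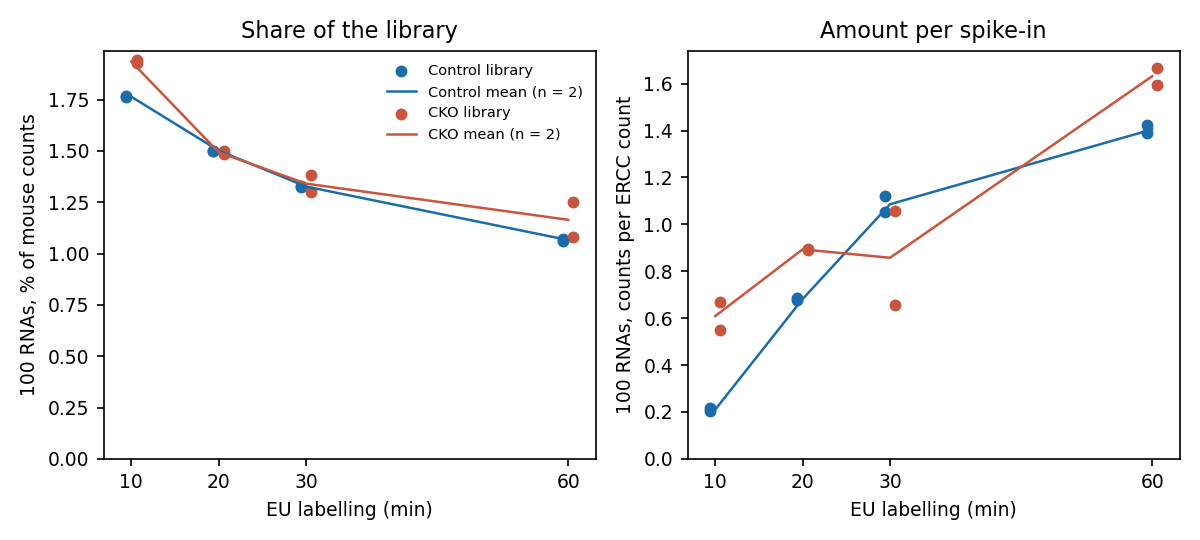
Summed counts of the 100 RNAs against EU labelling time, as a percentage of mouse counts (left) and per ERCC spike-in count (right); points are libraries and lines join group means (n = 2). The share fell from 1.76% to 1.07% on average in Control and from 1.94% to 1.16% in CKO, while the amount per ERCC count rose from 0.210 to 1.40 and from 0.609 to 1.63.

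Measured against the spike-in, the same RNAs still accumulated. ERCC spike-in RNA was added after capture and before library construction, so counts per ERCC count also carry differences in recovery. In Control the members together rose from 0.210 ± 0.00837 counts per ERCC count at 10 min (SD, n = 2) to 0.681 ± 0.00372 at 20 min, 1.09 ± 0.0487 at 30 min and 1.40 ± 0.0240 at 60 min. In CKO they rose from 0.609 ± 0.0822 at 10 min (SD, n = 2) to 0.893 ± 0.00296 at 20 min, were at 0.857 ± 0.284 at 30 min and reached 1.63 ± 0.0505 at 60 min. The 30 min CKO libraries, at 1.06 and 0.656, lay above and below both 20 min libraries, and both lay below the 60 min libraries.

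The gain per spike-in was smaller than that of all mouse RNA. Both are divided by the same ERCC counts, so this restates the fall in share and adds no separate evidence. In Control the rule fixed its direction, also for the single members below. In Control the members' sum grew 6.69-fold between 10 and 60 min and all mouse counts 11.1-fold, and in CKO 2.68-fold and 4.49-fold. The members' gain in Control was 0.0471 counts per ERCC count per min between 10 and 20 min, 0.0404 between 20 and 30 min and 0.0106 between 30 and 60 min. In CKO it was 0.0285 between 10 and 20 min, −0.00359 between 20 and 30 min and 0.0258 between 30 and 60 min. Taken across the 30 min libraries that stand apart, it was 0.0185 between 20 and 60 min. All mouse counts gained 3.35, 3.65 and 1.67 per ERCC count per min over the same steps in Control. In CKO they gained 2.84, 0.468 and 2.55, and 2.03 between 20 and 60 min. The lower gain after 30 min in Control and between 20 and 30 min in CKO was thus not particular to the members. Labelling was 6 times longer at 60 than at 10 min, and 99 of the 100 members grew less than 6-fold per spike-in in CKO, as did 73.8% of the 4263 identifiers above the abundance minimum. Over the members the median growth in CKO was 2.84-fold (range 1.11 to 6.42), and over the 4263 identifiers it was 4.79-fold. In Control 17 of the members and 0.798% of the 4263 grew less than 6-fold, with medians of 7.07-fold and 11.2-fold. All mouse counts per ERCC count did not follow labelling time, growing 3.81-fold in Control from 10 to 20 min. At 10 min they stood at 31.4 in CKO and 11.9 in Control. The 6-fold mark is therefore not an equal yardstick for the genotypes.

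The fall with labelling time was then tested in the held-out genotype. In the 8 CKO libraries, 49 of 100 members were called lower at 60 than at 10 min and 0 higher (edgeR quasi-likelihood test with TMM scaling, Benjamini-Hochberg adjusted p under 0.05 over all identifiers tested). Of all 25405 identifiers tested, 3.82% were called lower and 5.9% higher; of the 4263 with the same abundance minimum, 10.7% were called lower and 24.6% higher. At an unadjusted p under 0.05, edgeR gave 68 members lower and 0 higher. The share of all identifiers at that threshold was not computed, so nothing about the members is read from these counts. DESeq2 gave 64 members lower and 1 higher after adjustment, with 17.9% and 32.7% of the 4263. The members' median log2 change in edgeR was −0.61, with quartiles of −0.85 and −0.32, against 0.13 for the 4263 identifiers and 0 for all tested. Of the other 238 identifiers that fell at each Control step, 26.1% were called lower, with a median of −0.22. Without the 30 min libraries 63 members were called lower and 0 higher, and their median was −0.62, while the shares called lower were 15.4% of the 4263 and 10.3% of all tested in that fit.

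Library by library the picture was the same. In 85 members both CKO 60 min libraries lay below both CKO 10 min libraries in CPM, against 30% of the 4263 identifiers and 22.6% of all tested. In 5 members both lay above, against 43.7% and 25.2%. The mean CKO level was lower at 60 than at 10 min in 92 members, against 42.9% of the 4263. It fell at each of the 3 steps in 26 members, compared with 4.18% of the 4263. Of the other 238 identifiers that fell at each Control step, 60.5% had both CKO 60 min libraries below both at 10 min and 15.5% both above. The CKO mean was lower at 60 min in 76.1% of these 238 and fell at each step in 12.2%. The step into 30 min counts little here, since 78.8% of the 4263 identifiers fell from 20 to 30 min in CKO. Leaving 30 min aside, 59 members fell from 10 to 20 and again from 20 to 60 min, against 23.1% of the 4263 and 42.4% of the other 238.

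**Figure D2:**
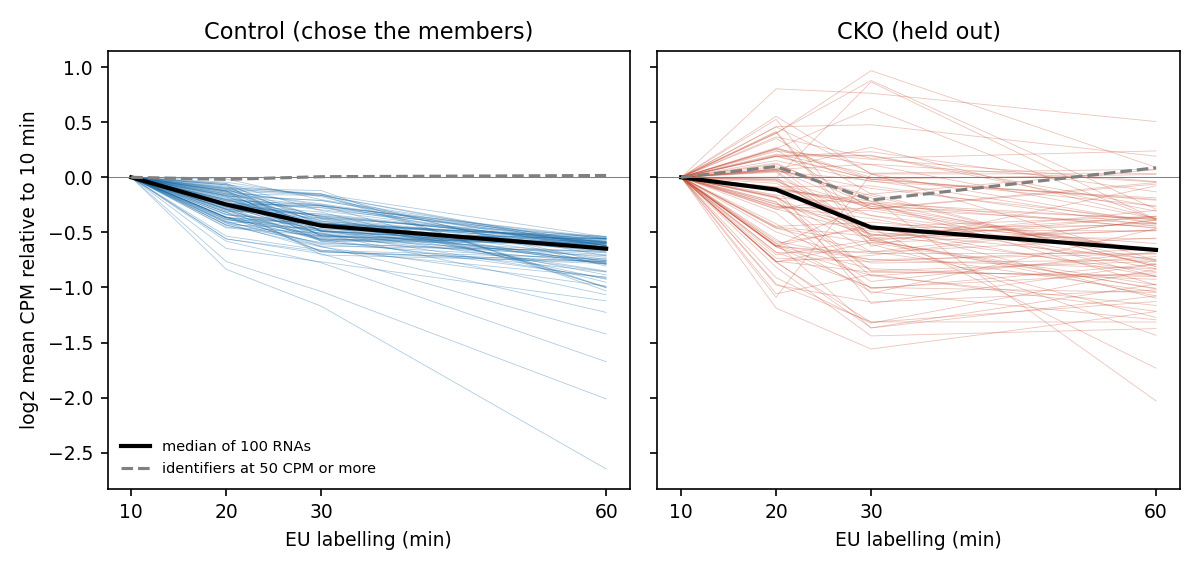
Mean CPM of each of the 100 RNAs relative to its own 10 min mean, on a log2 axis, against EU labelling time in Control (left) and CKO (right); thin lines are single RNAs, the black line is their median and the dashed line the mean over both libraries of the median over 4263 identifiers at 50 CPM or more. The Control lines fall throughout because the rule required it, and the CKO median ends at 0.633 of the 10 min level although single lines rise at 20 or 30 min.

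The held-out change was deepest in the members with the strongest fall in Control. The 10 lowest Control ratios, 0.160 to 0.500, went with CKO ratios of 0.245 to 0.812, and 9 of these 10 were called lower in CKO. For the next 15 members the median CKO ratio was 0.630 and 7 were called. In the remaining 75, with Control ratios of 0.581 to 0.690, the median CKO ratios by rank were 0.625, 0.746 and 0.718 in successive sets of 25, with 14, 8 and 11 called. Over the 100 members the log2 ratios of the genotypes had a Pearson r of 0.482 and a Spearman rho of 0.252. Over the 4263 identifiers above the abundance minimum they were 0.666 and 0.656, so the relation is not particular to the members. Without the 4 lowest Control ratios the values were 0.201 and 0.166 over 96 members, so that the relation within the members rests largely on those 4. These are descriptions over genes that share libraries, for the members within a range of Control ratios narrowed by the rule.

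**Figure D3:**
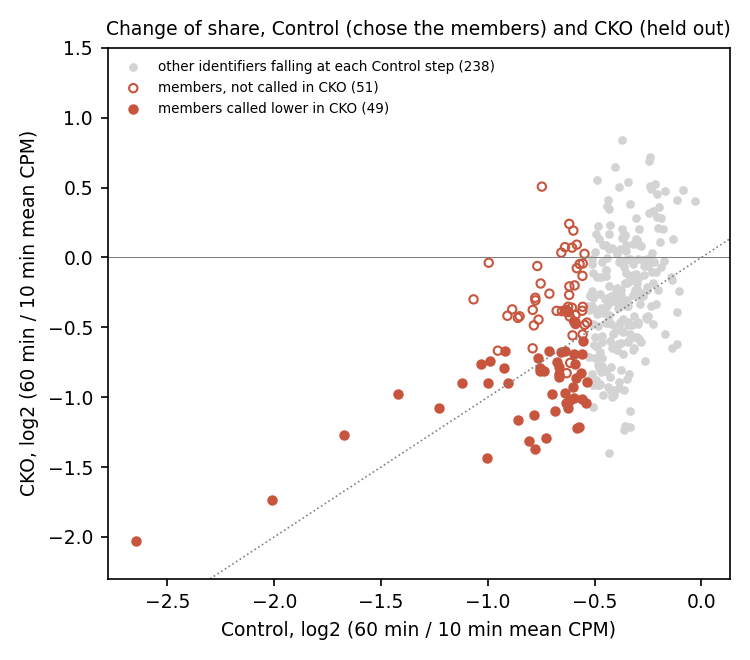
Log2 ratio of 60 to 10 min mean CPM in CKO (vertical) against Control (horizontal) for the 100 RNAs and the other 238 identifiers that fell at each Control step (grey); filled red points are members called lower in CKO by edgeR, open red circles members not called, and the dotted line marks equal ratios. The 4 RNAs farthest to the left all lie well below 0 in CKO, and the open red circles above 0 are members whose mean share was higher at 60 min there.

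The edge of the group was gradual. The last 3 members inside it had Control ratios of 0.687, 0.689 and 0.690 and CKO ratios of 0.485, 0.540 and 0.724. The first 3 identifiers outside had Control ratios of 0.692, 0.693 and 0.695 and CKO ratios of 0.787, 0.770 and 0.610.

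By abundance, 58 members had a mean of 50 to 100 CPM in Control, 25 had 100 to 200, 12 had 200 to 500 and 5 had more than 500. In the same order, 24, 12, 9 and 4 of them were called lower at 60 than at 10 min in CKO. The share of all identifiers called in each abundance class was not computed, so no relation with abundance is read from these counts. The most abundant member averaged 856 CPM over the Control libraries. Its mean went from 1024 to 501 CPM between 10 and 60 min in Control and from 909.6 to 536 CPM in CKO, a CKO log2 change of −0.72 (edgeR quasi-likelihood, Benjamini-Hochberg adjusted p = 0.000162). It ranked eighth by Control ratio, and the other 4 members above 500 CPM ranked 52 to 95.

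ENSMUSG00000112309.1 had the lowest ratio in both genotypes. In CKO it was at 48.6 and 37.6 CPM at 10 min, 44.7 and 46.3 at 20 min, 36.0 and 39.7 at 30 min, and 10.5 and 10.6 at 60 min. In Control it was at 100.1 and 86.2 CPM at 10 min, 52.9 and 51.5 at 20 min, 40.8 and 42.0 at 30 min, and 15.3 and 14.4 at 60 min. The Control libraries fell from the first step on, whereas the CKO libraries at 10 and 20 min overlapped and only those at 60 min stood clearly lower. From 10 to 60 min CKO fell by 1.98 on the log2 scale (SE 0.21; edgeR, Benjamini-Hochberg adjusted p = 7.19e-05), nearly all of it after 20 min, where the change to 60 min was −2.03 (SE 0.21, edgeR, Benjamini-Hochberg adjusted p = 0.00348).

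ENSMUSG00000103569.1 came next, with a similar course. Its CKO levels were 95.9 and 82.4 CPM at 10 min, 84.9 and 86.7 at 20 min, 80.9 and 48.9 at 30 min, and 21.8 and 31.8 at 60 min. Control started higher, at 172.6 and 163.1 CPM, and ended at 41.2 and 42.0 CPM. The CKO change from 10 to 60 min was −1.68 on the log2 scale (SE 0.23, edgeR, Benjamini-Hochberg adjusted p = 0.000423). In CKO all 4 values at 10 and 20 min exceeded both values at 60 min.

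Per spike-in these 2 RNAs were the nearest to a flat amount in CKO. With libraries scaled by ERCC totals, 96 of 100 members were called higher at 60 than at 10 min in CKO and 0 lower (edgeR, Benjamini-Hochberg), against 99.6% higher among the 4263 identifiers and 52.3% among all tested, where 0.0748% were called lower. The members' median log2 change on this scale was 1.51, against 2.26 for the 4263. The 4 members not called ranked 1, 2, 9 and 38 by Control ratio and grew 1.11-fold, 1.38-fold, 1.69-fold and 1.86-fold. ENSMUSG00000112309.1 changed by 0.15 (SE 0.38, edgeR, Benjamini-Hochberg adjusted p = 0.813) and ENSMUSG00000103569.1 by 0.47 (SE 0.40, edgeR, Benjamini-Hochberg adjusted p = 0.337). Values this imprecise do not show that the amounts were constant. Over the shorter steps 34 members were called higher per spike-in from 10 to 20 min, against 57.1% of the 4263 and 19.7% of all tested, and 40 from 20 to 60 min, against 92.2% and 30.7%. Called lower were 0 members at either step, with 0.0709% and 0.00787% of all tested. Without the first CKO 10 min library the count of members called higher was 57, with 91.4% of the 4263 and 29.1% of all tested.

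At the other end stood members whose share did not fall in CKO. ENSMUSG00000042010.16 was at 15.9 and 11.9 CPM at 10 min in CKO, 24.9 and 23.6 at 20 min, 21.6 and 25.6 at 30 min, and 21.1 and 18.5 at 60 min. Its CKO level at 10 min was the lowest of its course, and the log2 change to 60 min was 0.56 (SE 0.26, edgeR, Benjamini-Hochberg adjusted p = 0.234). In Control it was at 60.0 and 85.1 CPM at 10 min and at 42.5 and 44.0 at 60 min, above every CKO library at every labelling time. ENSMUSG00000029594.12 was at 66.1 and 79.2 CPM at 10 min in CKO and at 83.4 and 88.3 at 60 min, which is 0.29 higher on the log2 scale (SE 0.21; adjusted p = 0.48 by edgeR with Benjamini-Hochberg). Both had the highest CKO changes of all members, and neither passed the test.

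**Figure D4:**
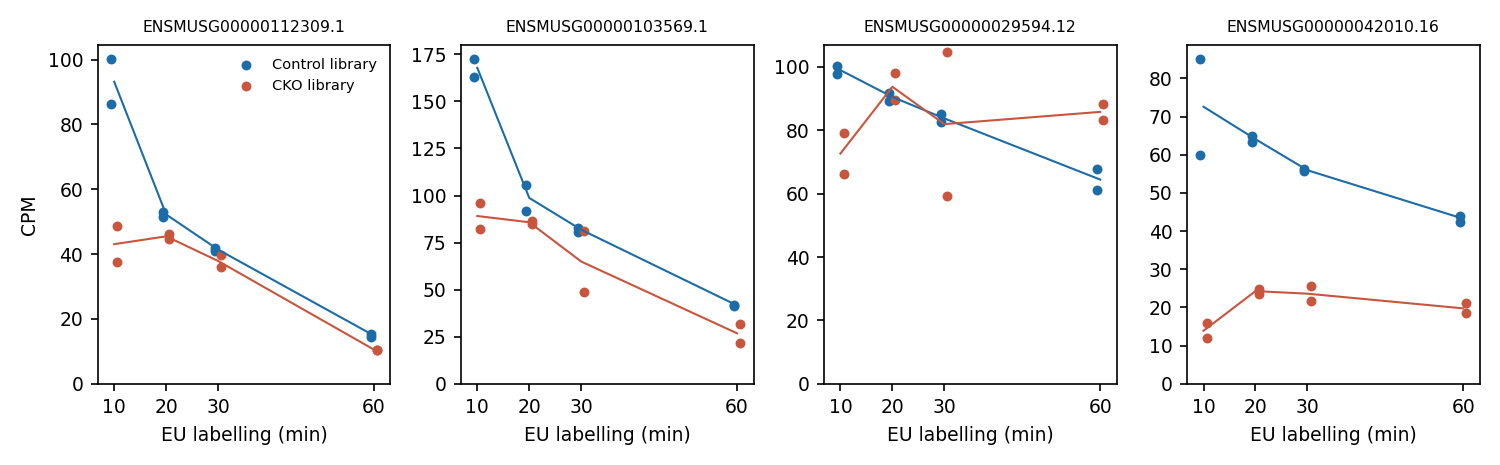
CPM of the 4 RNAs given by identifier against EU labelling time; points are libraries, lines join the means of 2 libraries, blue is Control and red CKO. ENSMUSG00000112309.1 and ENSMUSG00000103569.1 end at 10.5 and 26.8 CPM on average in CKO, while ENSMUSG00000042010.16 is at most 25.6 CPM in every CKO library.

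The timing of the fall varied between members. From 10 to 20 min in CKO, 22 members were called lower and 0 higher (edgeR, Benjamini-Hochberg), where 7.13% of the 4263 identifiers were called lower and 8% higher, and 1.78% and 1.71% of all tested. At an unadjusted p under 0.05, edgeR gave 37 members lower and 8 higher, where the share of all identifiers was not computed. DESeq2 gave 38 members lower and 7 higher after adjustment, with 16.1% and 18.2% of the 4263. The members' median log2 change over this step was −0.15, with 64 negative and 36 positive values. Both 20 min libraries lay below both 10 min libraries in 46 members and above them in 24, against 27.5% and 46.6% of the 4263 and 18.2% and 27.2% of all tested. Without the 30 min libraries 29 were called lower and 4 higher, with 10.9% and 13.5% of the 4263. When the first CKO 10 min library was dropped 6 were called, when the second was dropped 0, and when either of the 20 min pair was dropped 1. In these fits 1 library stands for its group and is taken to vary like the others.

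From 20 to 60 min the members moved more evenly. Of the 100, 92 had a negative log2 change in CKO, with a median of −0.30, and 10 were called lower and 0 higher (edgeR, Benjamini-Hochberg), against 0.61% lower and 1.6% higher among the 4263 and 0.232% and 0.291% among all tested. Both 60 min libraries lay below both 20 min libraries in 84 members, against 31.5% of the 4263 and 27.8% of all tested. Of the 10 called, 8 were among the 10 lowest Control ratios. At an unadjusted p under 0.05, edgeR gave 47 members lower and 0 higher, where the share of all identifiers was not computed. DESeq2 gave 33 members lower and 0 higher after adjustment, with 3.33% and 14.8% of the 4263. Without the 30 min libraries 19 were called lower, with 1.08% of the 4263. The count was 2 without either CKO 10 min library, 0 without either CKO 20 min library, 26 without either CKO 30 min library, and 4 and 5 without the first and second CKO 60 min library.

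The members' levels in the genotypes were set side by side at each labelling time. At 10 min 31 members had both CKO libraries above both Control libraries and 53 had both below, against 25.1% and 44% of the 4263 identifiers, and the ratio of CKO to Control means ran from 0.192 to 2.37 with a median of 0.841. At 20 min it ran from 0.379 to 1.30 with a median of 0.968, at 30 min from 0.422 to 3.24 with a median of 0.908, and at 60 min from 0.457 to 2.05 with a median of 0.968. The CKO libraries lay above and below Control in 26 and 44 members at 20 min (31% and 38.2% of the 4263), 21 and 43 at 30 min (11.3% and 66.5%), and 31 and 43 at 60 min (26.6% and 47.6%). At 10 min 15 members were over 1.5-fold higher and 21 over 1.5-fold lower in CKO, at 20 min 0 and 1, at 30 min 4 and 13, and at 60 min 7 and 4. The Control 10 min libraries are part of the rule, which favours members that were high there, so these counts are descriptions.

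Members that started high in CKO and members that started low took different courses. The 31 that started above Control had a median CKO level of 0.624 of their 10 min level at 20 min, 0.589 at 30 min and 0.511 at 60 min, and 21 of the 22 falls called from 10 to 20 min were theirs. The 53 that started below Control had medians of 1.07 at 20 min, 0.858 at 30 min and 0.771 at 60 min, and 0 of them were called at the first step; 26 of the 31 and 12 of the 53 were called lower from 10 to 60 min. In Control the same sets had medians of 0.861 and 0.833 of the 10 min level at 20 min and 0.653 and 0.596 at 60 min. The remaining 16 overlapped at 10 min, and 11 of them were called lower from 10 to 60 min. The CKO 10 min values enter both the split and the change, which favours such a contrast. The share of all identifiers called after the same split was not computed. The contrast between the sets is therefore a description, and nothing about the members is read from these counts of calls.

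**Figure D5:**
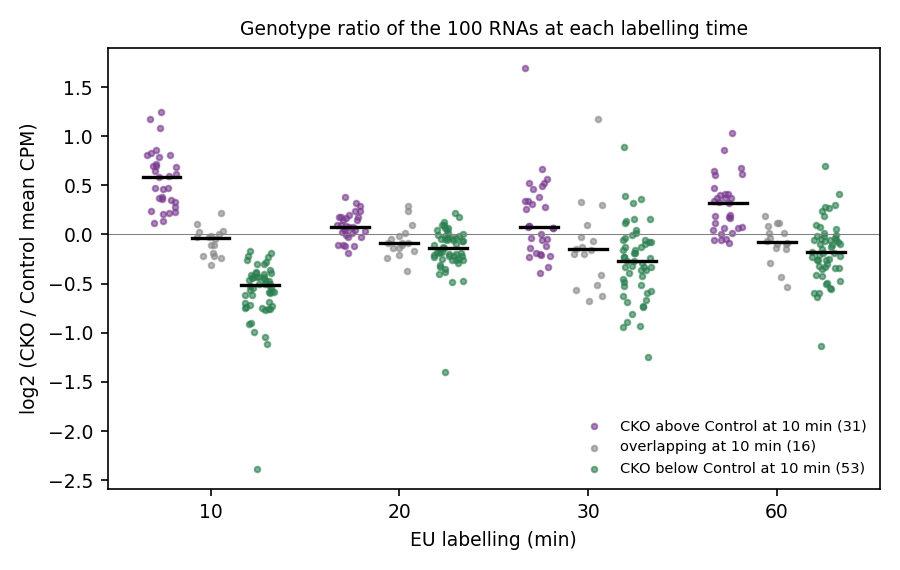
Log2 ratio of CKO to Control mean CPM for each of the 100 RNAs at 4 labelling times, coloured by the order of the libraries at 10 min (31 with CKO above Control, 16 overlapping, 53 below); black bars are medians. The sets differ at 10 min by construction, and their median ratios are 1.06 and 0.909 at 20 min and 1.25 and 0.883 at 60 min for the sets that started above and below.

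Over all labelling times, 29 members were called lower and 5 higher in CKO than in Control (edgeR, Benjamini-Hochberg, 16 libraries), where 20.6% of the 4263 identifiers were called lower and 3.87% higher, and 4.7% and 6.77% of all tested. The members' median log2 difference was −0.14, against −0.18 for the 4263, and its range was −1.57 to 0.98. ENSMUSG00000042010.16 had the lowest of these values. The Control libraries that chose the members enter this comparison, so nothing about the members is read from it. Under ERCC scaling 1 member was called lower and 6 higher, with 0.0469% and 4.29% of the 4263, and the members' median turned to 0.27, against 0.24 for the 4263.

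Replicate libraries of the members differed least in the Control 20 min group, by a median of 0.05 on the log2 scale, and most in the CKO 30 min group, by 0.23. In the 4263 identifiers these medians were 0.07 and 0.20. Between replicates 3 members differed more than 2-fold at 30 min in CKO, 2 at 60 min in CKO and 0 in the other 6 groups.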

How the data were processed

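Newly made RNA was captured and sequenced in 16 libraries. The authors deposited raw counts per gene identifier and per ERCC species, not normalised, 1 library per file. The tools named per the submitters' processing notes are HISAT2 2.1.0, HTSeq, Trimmomatic 0.38 and CASAVA, with build mm10. For annotation release, strand setting and counted feature, the sources used here give nothing, so overlapping, antisense and near-identical genes have uncertain counts, and captured precursor and mature RNA are not told apart.

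CPM used mouse counts only. Changes were tested with edgeR 4.0.16 in R 4.3.3 (robust quasi-likelihood fit, TMM scaling, filterByExpr, Benjamini-Hochberg over all tested identifiers, threshold 0.05), on the 8 CKO libraries with 4 group means, or on 16 libraries with labelling time plus genotype. The filter left 25405 and 27488 identifiers, all 100 members included. The spike-in scale replaced library sizes by ERCC totals. DESeq2 1.42.0 was an alternative. Scripts were tested on simulated data, with the spread between libraries set rather than estimated. The CKO test of 60 against 10 min recovered 14% of simulated 1.5-fold changes and 100% of 3-fold changes. Members not called are therefore not shown to be unchanged. The simulated rates hold only for the set spread and need not be those of these data. Among the members the smallest fall called in CKO from 10 to 60 min was −0.42 on the log2 scale. The members, lists and tests were chosen with earlier results of these data known. The rule for identifiers to name was cut to the 2 lowest and 2 highest CKO changes, and 20 gene lists, promoter motifs and the cell type markers were not analysed here, since no identifier could be matched to a symbol. The labels do not say whether replicate numbers pair libraries, and the main fits left them out. Deviations of same-numbered CKO libraries correlated at −0.113 to 0.0286 between labelling times, which cannot settle whether they share a culture or day.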

Additional observations from a re-analysis of the deposited data

Results flagged for a closer look

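In 5 members the genotypes moved in opposite directions: both CKO libraries lay higher at 60 than at 10 min, while both Control libraries lay lower. The Control order held in all 100 members. The CKO order was seen in 43.7% of the 4263 identifiers and 25.2% of all tested, so it was rarer among the members. The difference between the genotypes was not tested, since the Control change chose the members. Their CKO ratios of 60 to 10 min were 1.02, 1.05, 1.14, 1.18 and 1.42, and none of the CKO changes passed the edgeR test, with Benjamini-Hochberg adjusted p from 0.234 to 0.852. All 5 started below Control at 10 min in CKO, as did 53 of the 100 members. Choosing high Control and low CKO values at 10 min favours this order, so it is a description.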

How the results depend on the processing

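Of 89 alternative values for the 5 counts of called members, 64 lay within 1.5 times the count reported. ERCC scaling left 0 members called lower from 10 to 60, 10 to 20 and 20 to 60 min, and 7 called between genotypes. From 10 to 20 min DESeq2 called 38 lower and the fit of all 16 libraries 34. From 20 to 60 min DESeq2 called 33, no count filter 17, a minimum of 10 CPM 16, no 30 min libraries 19, all 16 libraries 28 and the replicate block 16. The block gave 52 from 10 to 60 min and 26 from 10 to 20 min, 93 per spike-in and 29 between genotypes. Leaving out each library in turn gave 33 to 59 members lower from 10 to 60 min, 0 to 28 from 10 to 20 min and 0 to 26 from 20 to 60 min, 57 to 98 higher per spike-in and 26 to 37 called between genotypes. The replicate block, the CKO changes fitted on all 16 libraries and most fits without 1 library have no share over all identifiers beside them. Their counts, here and above, are not read as results about the members. Apart from the change of measure under ERCC scaling, the cause of these shifts was not tested. The log2 changes of ENSMUSG00000112309.1 and ENSMUSG00000103569.1 turned to 0.15 and 0.47 under ERCC scaling. For ENSMUSG00000042010.16 the rise passed the test with DESeq2 (0.54, adjusted p = 0.0459) and with all 16 libraries (0.57, edgeR adjusted p = 0.0344). With TMM-scaled CPM in the rule 80 of the 100 members stayed, and 79 to 93 when 1 Control library was left out.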
